A study of Mus musculus with 8 samples.

Results

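The 36 genes described here are mouse germline genes, listed together because DNA methylation is held to keep them silent outside germ cells. They were taken as a fixed list of gene symbols and looked up in a table of gene expression values for mouse induced pluripotent stem cells (iPSCs). All 36 were found among its 23284 genes. The list holds 7 genes of the meiotic chromosome axis, synapsis and cohesin, 4 of meiotic recombination, 10 of the piRNA pathway, 6 for germ cell RNA binding and transcription, 4 germ cell copies of housekeeping genes and 5 others. DNA methylation itself was not measured in these samples.

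The samples were 8 libraries of iPSCs, which are mouse embryonic fibroblasts turned back into cells able to form any tissue of the body, kept on a layer of feeder cells. The dox libraries came from clones 1 and 2 of a knock-in line, genotype KI/KI at ColA1_miR203 and at Rosa26rtTA. Doxycycline (dox) switches on miR-203 in these cells, a microRNA best known from differentiating epithelia. Dox was present for 5 days, and RNA was taken after a further 2 weeks without it. The vehicle libraries came from clones 1 and 2 with the same genotype, not induced. The other 4 libraries came from wild-type iPSCs, +/+ at both loci, collected 1 week after transfection. One received siRNAs against Dnmt3a and Dnmt3b together (siDnmt3a + siDnmt3b), one siDnmt3a, one siDnmt3b and one a control siRNA (siControl). Dnmt3a and Dnmt3b are the enzymes that set new DNA methylation. There were 2 libraries in each knock-in group and 1 in each siRNA group, so p-values exist only for dox against vehicle and measure only the spread between those libraries. Every knock-in library carried the transgenes, no knock-in library received an siRNA and no wild-type library received dox.

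Germline genes such as these are marked for silencing around implantation. In the PRC1.6 complex, of which PCGF6 is a subunit, the MGA, MAX and E2F6 proteins recognise short motifs in their promoters. H3K9 methylation is laid down there by SETDB1 and EHMT1/EHMT2, and DNMT3A and DNMT3B methylate the CpG dinucleotides. Many of these promoters are rich in CpG, and they lose their methylation again in primordial germ cells, in which the genes switch on before meiosis.

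Promoter windows of 300 bases around the annotated start were available for 32 of the 36 genes (RefSeq, GRCm38.p6), and not for Piwil2, Adad1, Spo11 and Tex11. Tex13 was matched under its RefSeq symbol Tex13b. Where a gene had more than 1 window, only the one with the most CpG was kept. Among the members, Hormad1, Stk31, Fkbp6, Zcwpw1 and Dmrtb1 had 2 windows and Tdrd1 had 3. For such genes the CpG counts, ratios and words given here are those of a window chosen for its CpG. Whether another choice of window would change the comparisons was not tested. The windows held a median of 19.5 CpG (range 5 to 38), against 8 for the 27025 genes with a window and 22 for the genes expressed highly enough to be tested for dox. The median ratio of observed to expected CpG was 0.721 in the germline windows, against 0.413 over all genes. The 4 germline genes that fell after dox and Stag3, which had the largest ratio between the lines among the members averaging 1 FPKM or more, are shown because the results turn on them. Capitals mark each CpG, and every sequence runs 5′ to 3′ on the strand of its gene. Hormad1 lies at chr3:95559427-95559726 on the plus strand, Sycp1 at chr3:102936051-102936350 on the minus strand, Tex19.1 at chr11:121145893-121146192 on the plus strand, Rpl10l at chr12:66284352-66284651 on the minus strand and Stag3 at chr5:138280259-138280558 on the plus strand.
Hormad1: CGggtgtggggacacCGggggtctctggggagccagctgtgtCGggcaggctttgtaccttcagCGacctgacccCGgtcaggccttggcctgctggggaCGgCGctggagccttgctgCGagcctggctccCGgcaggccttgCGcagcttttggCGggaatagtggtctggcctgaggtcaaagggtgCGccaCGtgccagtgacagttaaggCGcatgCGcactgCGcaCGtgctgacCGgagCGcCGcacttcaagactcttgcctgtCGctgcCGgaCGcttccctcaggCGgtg
Sycp1: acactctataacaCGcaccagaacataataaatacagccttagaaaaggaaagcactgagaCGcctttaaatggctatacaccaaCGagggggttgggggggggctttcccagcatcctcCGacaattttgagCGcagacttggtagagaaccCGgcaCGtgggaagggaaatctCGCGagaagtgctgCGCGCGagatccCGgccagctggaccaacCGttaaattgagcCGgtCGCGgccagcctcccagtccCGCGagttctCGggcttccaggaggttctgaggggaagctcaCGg
Tex19.1: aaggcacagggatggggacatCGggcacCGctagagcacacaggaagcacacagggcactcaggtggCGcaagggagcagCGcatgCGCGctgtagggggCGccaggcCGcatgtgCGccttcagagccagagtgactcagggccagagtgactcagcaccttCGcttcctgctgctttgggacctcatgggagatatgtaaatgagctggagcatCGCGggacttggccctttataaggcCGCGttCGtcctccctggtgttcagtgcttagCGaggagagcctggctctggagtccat
Rpl10l: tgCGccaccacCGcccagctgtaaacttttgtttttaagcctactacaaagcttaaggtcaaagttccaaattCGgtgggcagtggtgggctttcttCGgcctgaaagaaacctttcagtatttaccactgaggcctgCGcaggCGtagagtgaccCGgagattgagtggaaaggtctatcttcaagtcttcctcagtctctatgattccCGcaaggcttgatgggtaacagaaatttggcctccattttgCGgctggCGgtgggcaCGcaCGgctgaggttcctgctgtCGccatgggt
Stag3: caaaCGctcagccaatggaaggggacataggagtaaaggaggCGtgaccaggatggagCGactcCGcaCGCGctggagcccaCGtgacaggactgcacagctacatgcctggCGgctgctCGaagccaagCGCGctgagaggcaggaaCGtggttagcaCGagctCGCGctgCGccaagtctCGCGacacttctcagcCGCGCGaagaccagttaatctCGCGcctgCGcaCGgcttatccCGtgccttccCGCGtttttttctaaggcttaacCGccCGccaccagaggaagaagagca
These windows held 24 CpG for Hormad1, 21 for Sycp1, 16 for Tex19.1, 13 for Rpl10l and 30 for Stag3. The E-box CACGTG, whose reverse complement is the same word and which is the core of the motif that MGA and MAX bind, was present in 14 of the 32 windows, or 43.75%. It was present in 7.40% of all windows, in 11.0% of those of genes tested for dox, and in 10.5% of the 5447 windows with a CpG count between the quartiles of the germline genes. Hormad1 held 2 copies, as did Sycp3, Tdrd9 and Fkbp6, Sycp1 and Stag3 held 1 each, and Tex19.1 and Rpl10l held none. The word GCGGGA, read on both strands and contained in many E2F sites, was present in 13 windows, or 40.6%, against 21.1% of all windows and 39.0% of those of tested genes. Copies of the 2 words can share at most 1 letter, and a match is a stretch of letters, not a bound site.

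Expression was measured as FPKM, which divides the fragments of a gene by transcript length and library size, so levels of different genes can be set side by side per length. By this measure the genes were partly on: 18 of 36 averaged 1 FPKM or more over the 8 libraries, as did 12042 of all 23284 genes. In dox clone 1, 2 members were listed at 0, 20 lay above 0 but under 1 FPKM and 14 reached 1 FPKM or more. In dox clone 2 the counts were 2, 17 and 17. In vehicle clone 1 they were 2, 16 and 18, and in vehicle clone 2 they were 1, 19 and 16. Among the wild-type libraries, siDnmt3a + siDnmt3b had 1, 18 and 17, siDnmt3a had 0, 18 and 18, siDnmt3b had 1, 16 and 19, and siControl had 1, 17 and 18. The share of members at 1 FPKM or more thus ran between 38.9% and 52.8%, while for all genes it ran between 49.9% and 51.9%. Between 0 and 2 of the 36 members were listed at 0 in a library, against 5624 to 5968 of the 23284 genes. Of the members, 13 reached 1 FPKM in all 8 libraries, 14 stayed under it in all 8, and 9 crossed it in some. Among all 23284 genes, 10215 stayed under it in all 8, so the count of 14 is not read as a result about the members.

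The 3 members Tex19.1, Rpl10l and Hsf2bp stood above 10 FPKM on average. Tex19.1, which restrains retrotransposons in germ and placental cells, averaged 26.0 FPKM and ran from 18.7 to 38.4. Rpl10l, the testis copy of a ribosomal protein gene, averaged 20.5 FPKM and ran from 9.66 to 38.6. Hsf2bp, which brings BRCA2 to meiotic recombination sites, averaged 15.4 FPKM and ran from 12.4 to 18.3. Tex19.1 was above Hsf2bp in all 8 libraries, while the range of Rpl10l overlapped both. Next came Stag3 at 6.53, Ddx4 at 6.37 and Syce1 at 5.84 FPKM, whose ranges also overlapped. At the other end, 10 members stayed under 0.5 FPKM in every library. The lowest were Spo11, the enzyme that makes the DNA breaks of meiosis, listed at 0 in 7 libraries and at 0.0517 FPKM in siDnmt3a, and the piRNA genes Asz1 and Tdrd9, which never passed 0.1 FPKM.

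**Figure D1:**
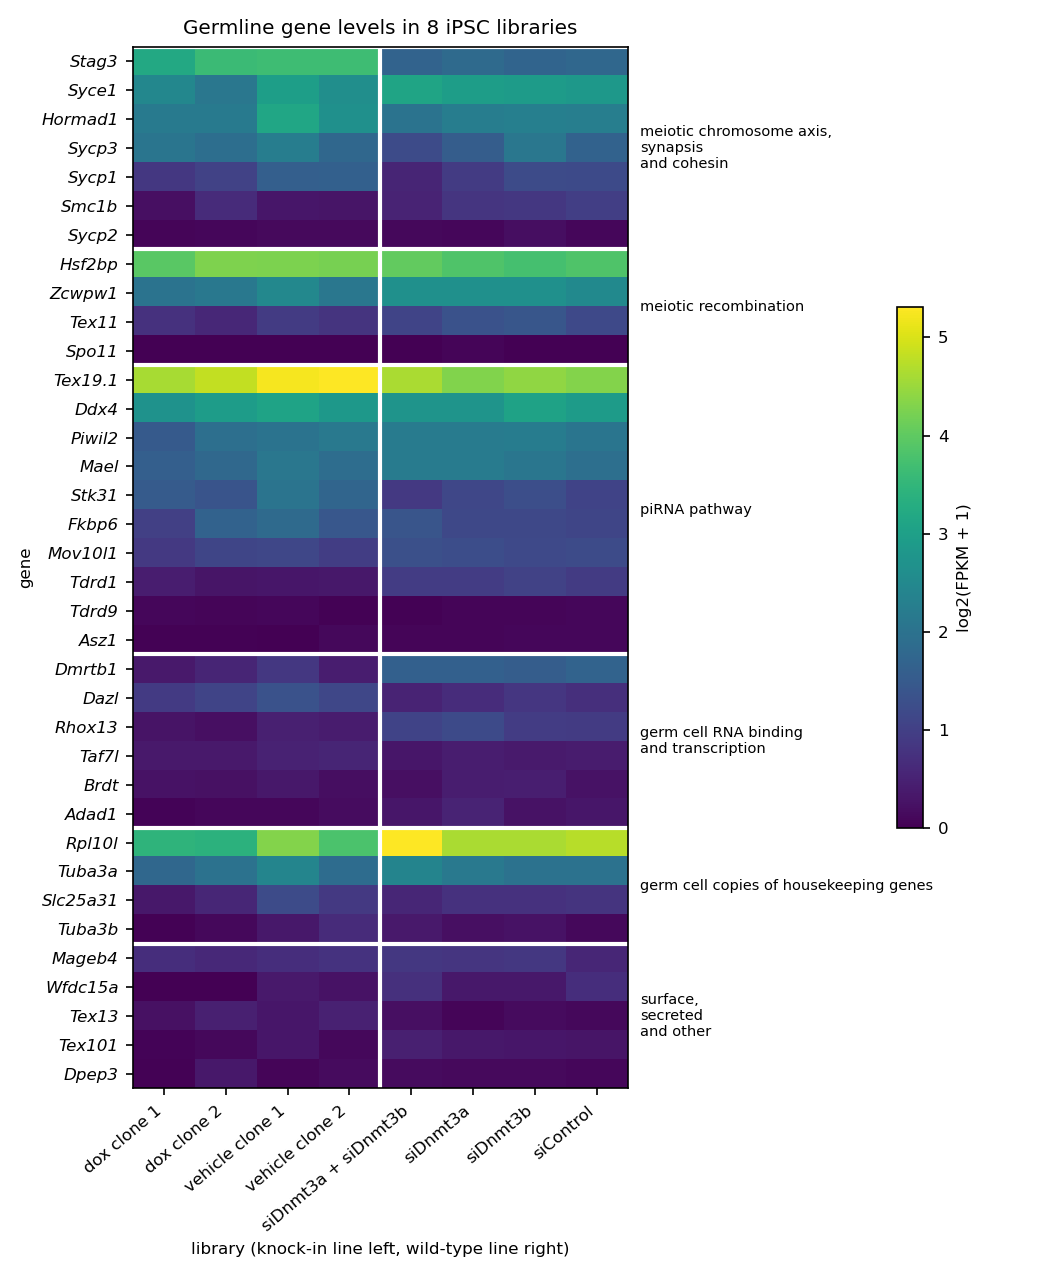
Levels of the 36 germline genes as log2(FPKM + 1), with a row per gene, grouped by role and ordered by mean within each role, and a column per library, dox and vehicle clones left of the white line and the wild-type siRNA libraries right of it. Tex19.1, Rpl10l and Hsf2bp are bright in every column, Spo11, Asz1 and Tdrd9 are dark in every column, and Stag3 changes at the white line.

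Levels of some members can be blurred by other transcripts. Against GENCODE M21, Tuba3a shared 33.6% of its 50-base words with other transcripts and Tuba3b 29.5%, in part with each other, and Mageb4 shared 50.1% with a pseudogene. Hormad1 shared 27.2% with the predicted genes Gm15529 and Gm7167. Rpl10l shared 7.60% with the predicted gene Gm14460, Sycp1 shared 3.69% with a pseudogene and Tex19.1 shared 2.95% with Tex19.2. Exons on the opposite strand, from Chpt1, cover 52.2% of the exon bases of Sycp3. Values of these genes are uncertain, and the shared percentages do not bound by how much, since they count exact matches only. The parent gene of Rpl10l, Rpl10, ran from 1353 to 2123 FPKM over the 8 libraries, against 9.66 to 38.6 FPKM for Rpl10l. Whether reads of Rpl10 entered the Rpl10l values was not tested, which applies to every Rpl10l result below.

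After transient miR-203 induction the germline genes that could be tested had lower values, few of which passed the test, and none rose. Of the 36, 17 had a mean of 1 FPKM or more over the dox and vehicle libraries and entered the limma fit of log2(FPKM + 1) across 11927 genes. Tex19.1, Sycp1, Hormad1 and Rpl10l fell (Benjamini-Hochberg adjusted p under 0.05 from limma), no member rose, and 13 did not pass. In that fit 14.8% of all genes fell and 17.1% rose, so 4 of 17, or 23.5%, is not far from the background. All 17 tested members averaged lower in dox than in vehicle, as did 51.1% of all genes tested, and in 10 of the 17 both dox libraries lay below both vehicle libraries, as did 37.1% of all genes tested. The median log2 difference, dox minus vehicle, was -0.29 for the members and -0.01 for all genes. Of the other 19, which were too low to be tested, 14 had a lower mean in dox, 4 a higher one, and Spo11 was listed at 0 in both groups.

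Equal clone numbers were taken to mark the same clone, which the labels do not state. A clone block adds a term to a fit of only 4 libraries. Its p-values therefore rest more on the variance that limma borrows across genes. With the clone number as a replicate block, limma called 7 of the 17 members lower, adding Syce1, Stk31 and Piwil2, while 26.7% of all genes fell in that fit. When the differences were corrected for GC content and transcript length, 2 of the 17 fell, Rpl10l and Tex19.1, against 14.0% of all genes, and the values of 2 members, Dazl and Sycp3, were above vehicle rather than below. Leaving out 1 library put between 0 and 3 of the members above vehicle. Limma then also called Syce1 lower without dox clone 1 or vehicle clone 2, Piwil2 and Stag3 without dox clone 2, and Stk31 without vehicle clone 2.

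**Figure D2:**
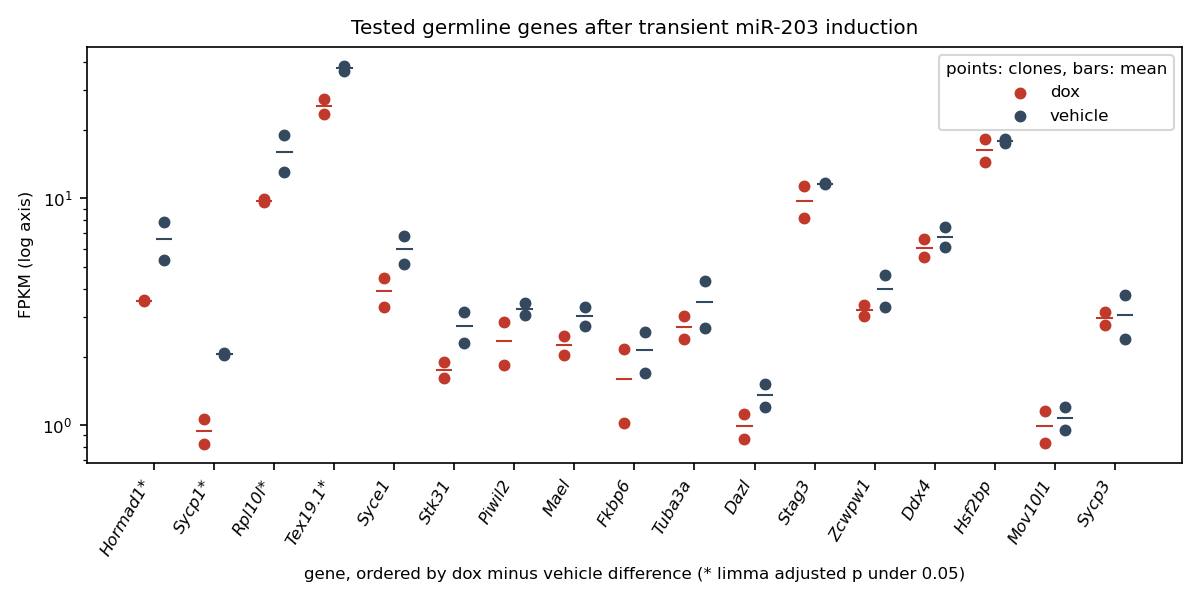
FPKM on a log axis of the 17 tested germline genes in the dox clones (left point of each pair) and vehicle clones (right point), with bars at the mean of 2 clones and an asterisk where limma's adjusted p was under 0.05. The dox points of Hormad1, Sycp1, Rpl10l and Tex19.1 lie below both of their vehicle points, and those of Sycp3 overlap them.

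Among the genes of meiotic chromosome structure, 2 of 5 tested members fell. Hormad1, a protein of the chromosome axis, had 3.54 and 3.54 FPKM in dox clones 1 and 2, against 7.87 and 5.33 FPKM in vehicle clones 1 and 2. Both dox values lay below both vehicle values, and the vehicle clones differed from each other. The log2 difference was -0.72 (SE 0.165, limma adjusted p = 0.0209). It was -0.38 with the GC and length correction (limma adjusted p = 0.0894), and without vehicle clone 1 the limma adjusted p was 0.0629. Sycp1, the filament that joins paired chromosomes, had 0.827 and 1.06 FPKM in dox clones 1 and 2, against 2.03 and 2.07 FPKM in vehicle clones 1 and 2. The groups were well apart, with a log2 difference of -0.65 (SE 0.122, limma adjusted p = 0.0115). With the GC and length correction it was -0.24 (limma adjusted p = 0.242). The transcripts of Hormad1 and Sycp1 are poor in GC, at 35.8% and 34.6%.

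Syce1, of the central element of the synaptonemal complex, had 4.45 and 3.32 FPKM in dox clones 1 and 2, against 6.81 and 5.14 FPKM in vehicle clones 1 and 2. The groups did not overlap, but the log2 difference of -0.51 (SE 0.163) missed the threshold at a limma adjusted p of 0.0548, against 0.00111 with the clone block. Stag3, a cohesin subunit of meiosis, had 8.20 and 11.3 FPKM in dox clones against 11.6 and 11.6 FPKM in vehicle clones (log2 difference -0.24, limma adjusted p = 0.228). Sycp3, of the lateral element, had 3.15 and 2.77 FPKM in dox clones against 3.73 and 2.39 FPKM in vehicle clones, which overlapped (log2 difference -0.02, limma adjusted p = 0.947). The cohesin gene Smc1b and Sycp2 stayed under 1 FPKM in all 8 libraries.

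Neither tested gene of meiotic recombination passed. Hsf2bp had 14.4 and 18.3 FPKM in dox clones against 18.3 and 17.5 FPKM in vehicle clones, and the groups overlapped (log2 difference -0.13, limma adjusted p = 0.435). Zcwpw1, a reader of the histone marks that PRDM9 sets at recombination sites, had 3.03 and 3.37 FPKM in dox clones against 4.61 and 3.33 FPKM in vehicle clones, which also overlapped (log2 difference -0.23, limma adjusted p = 0.260). Tex11, an X-linked gene for chromosome pairing and crossing over, was too low to be tested, at 0.689 and 0.510 FPKM in dox clones and 0.906 and 0.745 FPKM in vehicle clones, with both dox values below both vehicle values.

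In the piRNA pathway, whose small RNAs guide the silencing of transposons in germ cells, 1 of 7 tested members fell. Tex19.1 had 23.5 and 27.4 FPKM in dox clones 1 and 2, against 36.6 and 38.4 FPKM in vehicle clones 1 and 2. It was the highest of the 36 in all 4 of these libraries and the groups did not overlap. The log2 difference was -0.54 (SE 0.0960, limma adjusted p = 0.00956), and -0.60 with the GC and length correction (limma adjusted p = 0.00583). Stk31, a tudor domain protein with a kinase-like part, had 1.89 and 1.62 FPKM in dox clones against 3.14 and 2.31 FPKM in vehicle clones. Piwil2, an Argonaute that binds piRNAs, had 1.83 and 2.84 FPKM in dox clones against 3.05 and 3.45 FPKM in vehicle clones. Mael, a component of the germ granule called nuage, had 2.03 and 2.47 FPKM in dox clones against 3.32 and 2.72 FPKM in vehicle clones. For these 3 genes both dox values lay below both vehicle values. Their limma adjusted p were 0.0643 for Stk31, 0.130 for Piwil2 and 0.118 for Mael, and with the clone block 0.00778, 0.0195 and 0.0554.

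The other tested piRNA genes overlapped between the groups. Ddx4, the mouse Vasa helicase, had 5.49 and 6.58 FPKM in dox clones against 7.46 and 6.09 FPKM in vehicle clones. Fkbp6, a cochaperone of piRNA loading, had 1.02 and 2.17 FPKM in dox clones against 2.57 and 1.70 FPKM in vehicle clones. Mov10l1, the helicase that starts piRNA processing, had 0.829 and 1.16 FPKM in dox clones against 1.20 and 0.949 FPKM in vehicle clones. For each of these 3 genes the clones of either group differed from each other by more than the groups did, and the limma adjusted p were 0.426, 0.373 and 0.766. Tdrd1, a tudor domain scaffold of the pathway, reached 1 FPKM only in the siDnmt3b library, at 1.07.

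Of the genes for germ cell RNA binding and transcription only Dazl could be tested. Dazl, an RNA-binding protein that licenses germ cells for meiosis, had 0.864 and 1.11 FPKM in dox clones against 1.52 and 1.20 FPKM in vehicle clones. Both dox values lay below both vehicle values, yet the difference of -0.25 on the log2 scale did not pass (limma adjusted p = 0.204) and was 0.08 with the GC and length correction. Dmrtb1, a DM domain transcription factor of spermatogonia, had 0.288 and 0.462 FPKM in dox clones and 0.816 and 0.349 FPKM in vehicle clones and was not tested. Rhox13, an X-linked homeobox gene, had 0.206 and 0.165 FPKM in dox clones and 0.378 and 0.321 FPKM in vehicle clones. Taf7l, Brdt and Adad1 stayed under 0.5 FPKM in all 8 libraries.

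The germ cell copies of housekeeping genes held the fourth call. Rpl10l had 9.90 and 9.66 FPKM in dox clones 1 and 2, against 19.0 and 13.0 FPKM in vehicle clones 1 and 2. The dox clones were alike, the vehicle clones were not, and the groups did not overlap. The log2 difference was -0.64 (SE 0.165, limma adjusted p = 0.0298), and without vehicle clone 1 the limma adjusted p was 0.0877. Its parent gene Rpl10 had 1380 and 1353 FPKM in dox clones and 1506 and 1499 FPKM in vehicle clones, so the copy ran far below the parent in every library. Tuba3a, a testis alpha-tubulin, had 2.40 and 3.03 FPKM in dox clones against 4.31 and 2.67 FPKM in vehicle clones, which overlapped (limma adjusted p = 0.336). Slc25a31, the germ cell ADP/ATP carrier of mitochondria, was too low to be tested at 0.265 and 0.492 FPKM in dox clones and 1.33 and 0.848 FPKM in vehicle clones, with both dox values below both vehicle values. Tuba3b had 0.0275 and 0.0795 FPKM in dox clones and 0.275 and 0.571 FPKM in vehicle clones.

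The remaining 5 members, Tex101, Dpep3, Wfdc15a, Tex13 and Mageb4, ran from 0 to 0.821 FPKM and none was tested. The protease inhibitor-like gene Wfdc15a was listed at 0 in both dox libraries and had 0.277 and 0.192 FPKM in vehicle clones 1 and 2. With no filter on low values limma gave it an adjusted p of 0.0298, while Hormad1 and Rpl10l then missed the threshold at 0.0792 and 0.0981.

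The spread between clones was larger for the members than the median gene showed. The median absolute difference between clones 1 and 2 on the log2(FPKM + 1) scale was 0.21 in dox and 0.25 in vehicle for the tested members, against 0.11 and 0.10 for all genes tested. Other meiotic and piRNA genes had much the same spread, at 0.21 in dox and 0.24 in vehicle. The genes compared were not matched for level. Of the 17 tested members 6 averaged 5 FPKM or more over the dox and vehicle libraries, against 8643 of the 11927 genes tested. Whether the wider spread goes beyond that of other low genes was not tested. The direction was not the same in both groups: clone 1 minus clone 2 had a median of -0.19 in dox and 0.25 in vehicle. The 36 genes summed to 90.9 and 106.2 FPKM in dox clones 1 and 2, against 143.6 and 125.7 FPKM in vehicle clones 1 and 2, where clone 1 stood highest of the 8 libraries.

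The machinery that represses germline genes was measured in the same libraries. Of 20 genes of PRC1.6 and of H3K9 methylation, all tested, 12 fell and 2 rose, Ring1 and Yaf2, with a median log2 difference of -0.34. Trim28, the KAP1 corepressor, had 402.0 and 354.3 FPKM in dox clones against 664.8 and 597.8 FPKM in vehicle clones (log2 difference -0.74, limma adjusted p = 0.00266). Cbx3, an HP1 protein of PRC1.6, had 103.6 and 83.5 FPKM in dox clones against 152.9 and 131.4 FPKM in vehicle clones (log2 difference -0.60). Rnf2, its ubiquitin ligase, and Pcgf6, the subunit that defines the complex, had log2 differences of -0.51 and -0.50, and both fell.

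Of the enzymes of DNA methylation and demethylation 10 of 11 were tested, 4 fell and none rose, with a median log2 difference of -0.23. Dnmt3b had 21.5 and 20.8 FPKM in dox clones 1 and 2, against 68.8 and 55.1 FPKM in vehicle clones 1 and 2 (log2 difference -1.50, limma adjusted p = 0.000528). Dnmt3l, a cofactor without enzyme activity, had 96.3 and 75.8 FPKM in dox clones against 269.7 and 174.0 FPKM in vehicle clones (log2 difference -1.33). The chromatin remodeller gene Hells and Uhrf1, which brings DNMT1 to replicated DNA, had log2 differences of -0.82 and -0.39 and fell too. Dnmt3a had 7.55 and 7.64 FPKM in dox clones against 8.85 and 9.55 FPKM in vehicle clones and missed the threshold (limma adjusted p = 0.0796).

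Feeder fibroblast markers moved the other way. All 20 rose, with a median log2 difference of 1.49, none was at 0 in any library, and their summed level was 2210 and 2245 FPKM in dox clones 1 and 2, against 706.5 and 825.2 FPKM in vehicle clones 1 and 2. Of 12 pluripotency markers 3 rose, 2 fell and the median was -0.02, with sums of 4602 and 4465 FPKM in dox clones against 4026 and 3618 FPKM in vehicle clones. Which cells the signal of these fibroblast markers came from was not tested, nor was its part in the lower germline values. In bulk RNA fewer cells expressing a gene and less RNA per cell cannot be told apart.

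**Figure D3:**
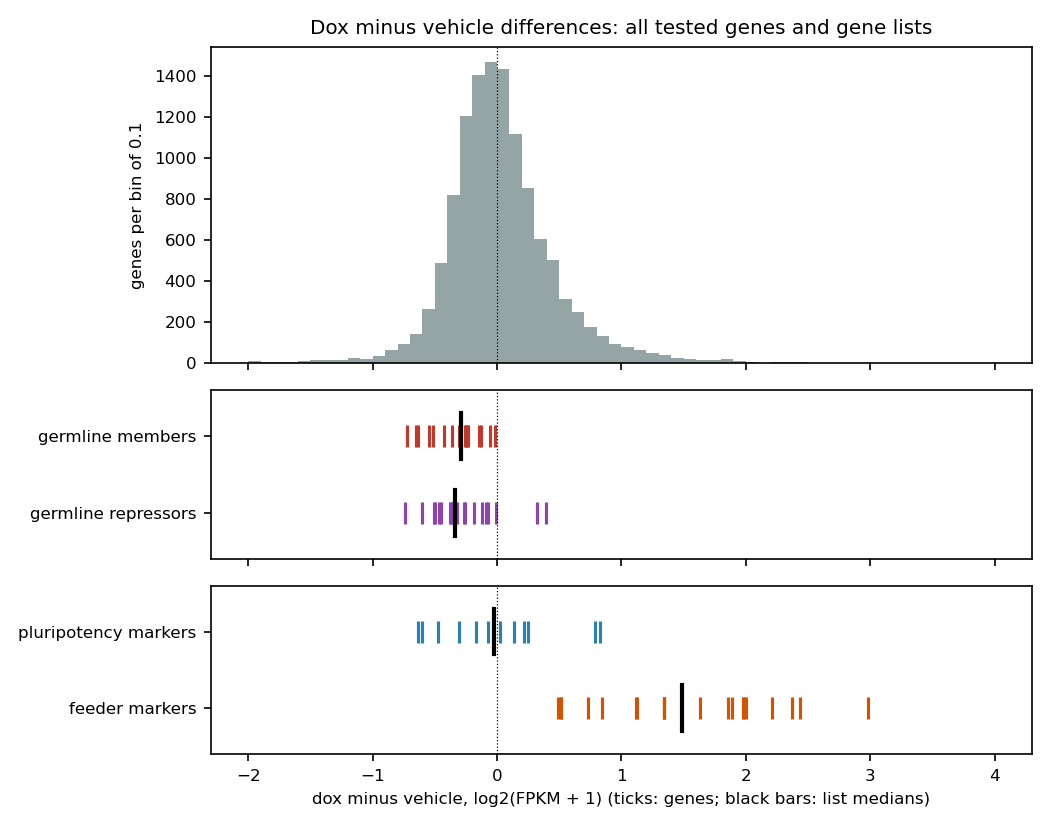
Differences between dox and vehicle on the log2(FPKM + 1) scale, with a histogram of all 11927 tested genes at the top and a tick per gene for 4 lists below it, black bars marking list medians. The 17 germline ticks all lie left of 0 with a median of -0.29, the repressors have a median of -0.34, the pluripotency markers straddle 0 and the feeder markers lie to the right with a median of 1.49.

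Lowering Dnmt3a and Dnmt3b asks whether the germline genes come up when less of the enzymes is made. At collection, 1 week after transfection, the enzymes' transcripts were little lower, and their levels before then were not measured here. Dnmt3a had 69.5 FPKM in siDnmt3a + siDnmt3b, 59.8 in siDnmt3a and 77.6 in siDnmt3b, against 75.1 in siControl. Dnmt3b had 135.0 FPKM in siDnmt3a + siDnmt3b, 134.8 in siDnmt3a and 128.3 in siDnmt3b, against 146.3 in siControl. Among the members measured, none differed from siControl by 2-fold on the log2(FPKM + 1) scale. Lower members could differ by more in FPKM itself, such as Smc1b with 0.444 FPKM in siDnmt3a + siDnmt3b against 0.973 in siControl, and Tuba3b with 0.286 against 0.0792. The members measured, with a mean of 1 FPKM or more over the 2 libraries compared, numbered 16 for siDnmt3a + siDnmt3b, 19 for siDnmt3a and 18 for siDnmt3b.

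For siDnmt3a + siDnmt3b, 0 of 16 members were higher and 0 lower by 2-fold, where 0.102% of all genes were higher and 0.136% lower. For siDnmt3a, 0 of 19 members passed either way, against 0.068% of all genes higher and 0.085% lower. For siDnmt3b, 0 of 18 did, against 0.0512% of all genes higher and 0.0597% lower. With backgrounds this low, a count of 0 in lists of this size says little about the members. Members above siControl numbered 10 of 16, 11 of 19 and 13 of 18, where all genes above it numbered 6052 of 11723, 5680 of 11768 and 5712 of 11727. The median log2 differences were 0.14, 0.04 and 0.06 for the members and 0.01, -0.00 and -0.00 for all genes. Each of the 3 comparisons uses the same single siControl library, so its chance values enter them all, and no p-value can be given.

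The largest difference among measured members was that of Rpl10l, with 38.6 FPKM in siDnmt3a + siDnmt3b, 23.9 in siDnmt3a and 23.8 in siDnmt3b, against 25.8 in siControl. It was higher in the double library alone, by 0.56 on the log2(FPKM + 1) scale, or 0.36 after correction for GC content and length, and Rpl10 was also highest there, at 2123 FPKM against 1815 in siControl. Tex19.1 had 23.7 FPKM in siDnmt3a + siDnmt3b, 18.7 in siDnmt3a and 20.5 in siDnmt3b, against 18.9 in siControl. Tuba3a had 4.24, 3.40 and 3.01 FPKM in the same order of siRNA libraries, against 2.99 in siControl. All 3 genes were highest in the double library. There the log2 differences of Tex19.1 and Tuba3a were 0.31 and 0.39, or 0.17 and 0.22 after the same correction.

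Genes of the synaptonemal complex differed among themselves. Syce1 had 7.63 FPKM in siDnmt3a + siDnmt3b, 6.72 in siDnmt3a and 6.50 in siDnmt3b, against 6.12 in siControl. Sycp3 had 1.32 FPKM in siDnmt3a + siDnmt3b, 1.96 in siDnmt3a and 3.32 in siDnmt3b, against 2.18 in siControl, so it was lowest in the double library and highest with siDnmt3b alone. Its log2 difference was -0.45 in the double library and 0.44 with siDnmt3b. After correction for GC content and length these were -0.24 and 0.33. Sycp1 had 0.456 FPKM in siDnmt3a + siDnmt3b, 0.904 in siDnmt3a and 1.31 in siDnmt3b, against 1.28 in siControl, and lay under the limit for being measured in the double library, where its log2 difference was -0.64. Mael, by contrast, had 3.62, 3.64 and 3.21 FPKM in siDnmt3a + siDnmt3b, siDnmt3a and siDnmt3b, against 2.84 in siControl. Dazl, a gene often read as a sign of lost promoter methylation, had 0.442, 0.591 and 0.786 FPKM in those libraries, against 0.633 in siControl. Slc25a31 had 0.488, 0.687 and 0.690 FPKM, against 0.745 in siControl. Neither Dazl nor Slc25a31 was thus above siControl with both siRNAs. Other members under 1 FPKM were above it there, among them Mageb4, Tex101 and Tex13, and each of these low values rests on 1 library.

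Set beside the larger of the 2 clone differences in the knock-in line, which is another line and no replicate of these libraries, 13 of 16 members stayed within it for siDnmt3a + siDnmt3b, 16 of 19 for siDnmt3a and 17 of 18 for siDnmt3b. The share of all genes within their clone differences was not computed. Clone differences were also larger for the members than for all genes, so these counts are not read as a result about the members. Members beyond the clone difference were Rpl10l, Tex19.1 and Mael, all higher, in the double library, Mael and Rhox13 higher and Sycp1 lower with siDnmt3a, and Tex11 higher with siDnmt3b. Rhox13, at 0.891 FPKM in siControl, passed the filter only through siDnmt3a, at 1.29 FPKM. Sycp1, at 0.904 FPKM in siDnmt3a, passed it only through siControl, at 1.28 FPKM. The directions of Rhox13 and Sycp1 are therefore not read as results. After correction for GC content and length the double-library differences were 0.36 for Rpl10l, 0.17 for Tex19.1 and 0.24 for Mael. Those of Rpl10l and Tex19.1 then lay within the uncorrected clone difference, and that of Mael beyond it. The feeder markers summed to 359.2, 364.4 and 357.9 FPKM in siDnmt3a + siDnmt3b, siDnmt3a and siDnmt3b, against 461.0 in siControl. Their part in the germline values was not tested.

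**Figure D4:**
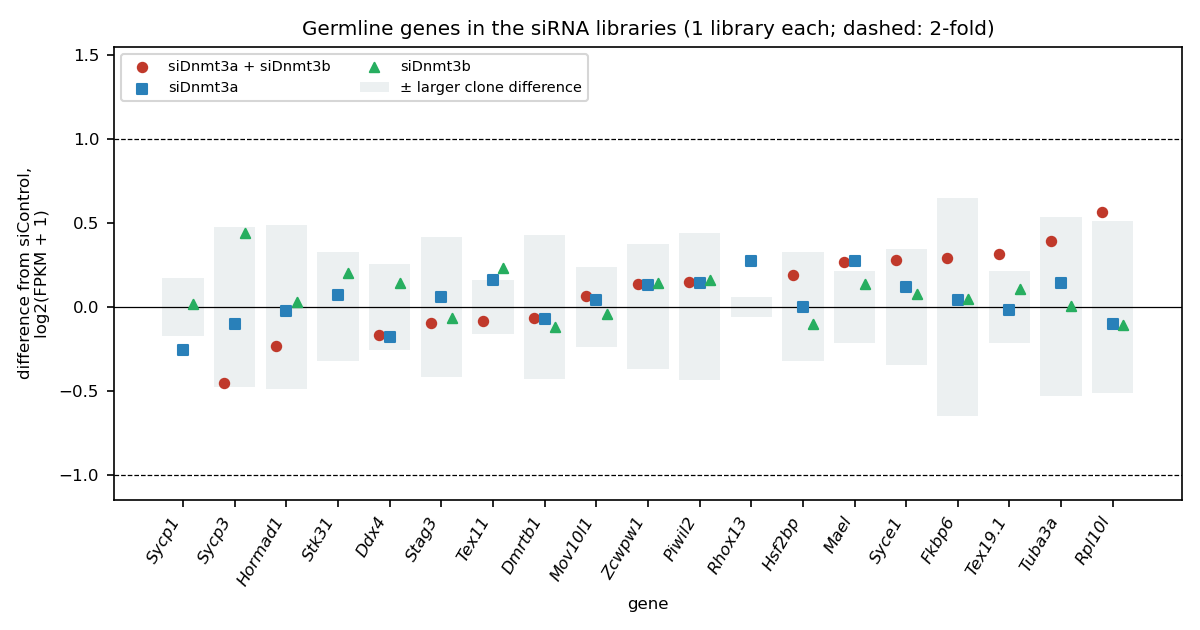
Differences from siControl on the log2(FPKM + 1) scale for the germline genes measured in at least 1 comparison, with 1 library per siRNA group, dashed lines at 2-fold and grey bands for the larger difference between clones of the knock-in line. All points lie inside the dashed lines, and Rpl10l in the double library is the farthest from 0, at 0.56.

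The lines differed more than the treatments for a few members. Among the 18 members with a mean of 1 FPKM or more over the 8 libraries, 2 had all 4 knock-in libraries above all 4 wild-type ones, Stag3 and Stk31, and 5 had them all below, Rpl10l, Mov10l1, Zcwpw1, Dmrtb1 and Tex11, and 11 overlapped. Of 12042 genes, 30.5% lay wholly above and 30.2% wholly below, beside 11.1% and 27.8% of the members. Dmrtb1 and Tex11 averaged 0.479 and 0.712 FPKM in the knock-in libraries. They passed the filter only through the wild-type libraries, where they were higher, so their place below is not read as a result. The 12042 genes passed the same filter. Line, culture and treatment differ together between these 8 libraries and cannot be told apart, so the values are described without a test.

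Stag3 had 8.20 and 11.3 FPKM in dox clones 1 and 2 and 11.6 and 11.6 FPKM in vehicle clones 1 and 2. In the wild-type line it had 2.21 FPKM in siDnmt3a + siDnmt3b, 2.59 in siDnmt3a, 2.28 in siDnmt3b and 2.44 in siControl. The lowest knock-in value was thus above the highest wild-type one by a wide margin, and the ratio of the knock-in to the wild-type mean was 4.49. Dmrtb1 lay the other way, with 0.288 to 0.816 FPKM in the knock-in libraries against 1.98 to 2.24 FPKM in the wild-type libraries, a ratio of 0.228. The low genes Rhox13 and Tdrd1 did the same. Rhox13 ran from 0.165 to 0.378 FPKM in the knock-in libraries against 0.891 to 1.29 FPKM in the wild-type libraries, and Tdrd1 from 0.229 to 0.335 FPKM against 0.906 to 1.07 FPKM. Dazl was higher in the knock-in line, at 0.864 to 1.52 FPKM against 0.442 to 0.786 FPKM in the wild-type line.

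Rpl10l ran from 9.66 to 19.0 FPKM in the knock-in libraries against 23.8 to 38.6 FPKM in the wild-type libraries, a ratio of 0.461. Tex11 ran from 0.510 to 0.906 FPKM against 1.14 to 1.66 FPKM, and Zcwpw1 from 3.03 to 4.61 FPKM against 4.76 to 5.37 FPKM. Stk31 ran from 1.62 to 3.14 FPKM in the knock-in libraries against 0.830 to 1.41 FPKM in the wild-type libraries. With the vehicle libraries alone standing for the knock-in line, 7 members lay above and 5 below the wild-type libraries, or 38.9% and 27.8% of 18, against 38.9% and 37.3% of all genes, since Sycp1, Hormad1, Tex19.1, Fkbp6 and Hsf2bp joined Stag3 and Stk31. Sycp1 averaged 0.986 FPKM in the wild-type libraries, so it passed the filter only through the knock-in libraries.

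**Figure D5:**
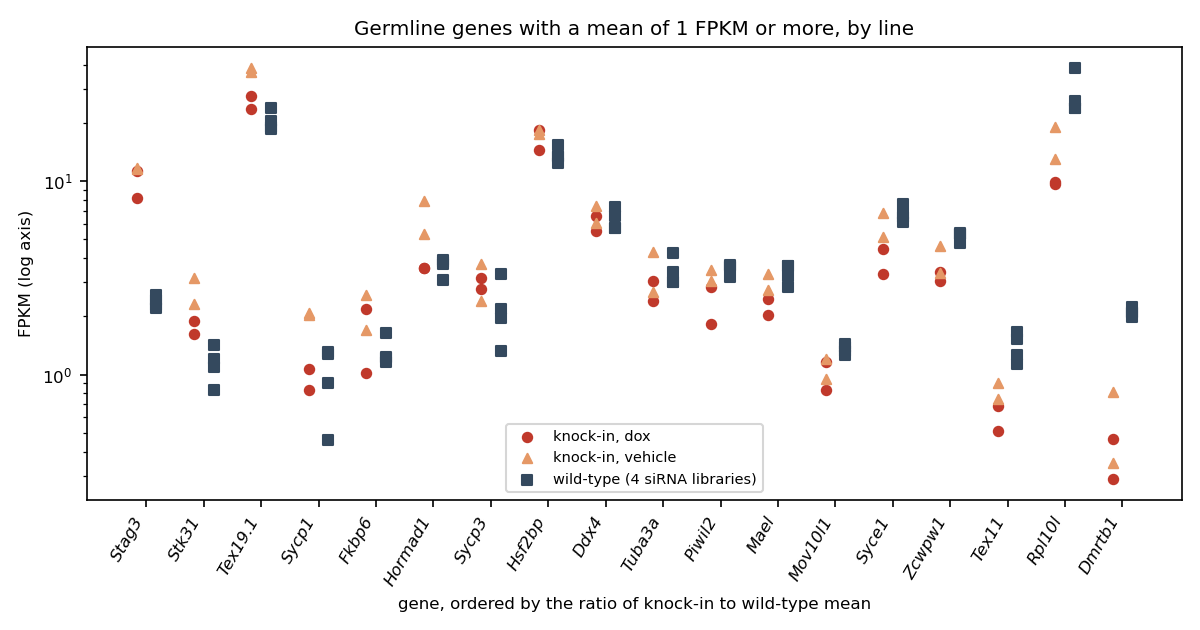
FPKM on a log axis of the 18 germline genes with a mean of 1 FPKM or more, knock-in libraries (dox circles, vehicle triangles) left and the 4 wild-type libraries (squares) right of each position, ordered by the ratio of the line means. Stag3 and Stk31 stand wholly above in the knock-in line, and Mov10l1, Zcwpw1, Tex11, Rpl10l and Dmrtb1 wholly below.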

How the data were processed

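The values are FPKM, deposited by the authors as 1 table with 1 column for each of 8 libraries, and 0 columns were left unused. Per the labels' protocols, polyadenylated RNA was made into strand-specific dUTP libraries and sequenced on a HiSeq2500. Builds GRCm38 and mm10 appear in the submitters' processing notes, which list Cufflinks 2.2.1, Cuffnorm, TopHat2 2.0.10, SAMtools 0.1.19, Bowtie 1.0.0 and FastQC. How Cuffnorm scaled the libraries, its version, the annotation release, the strand setting and the number of fragments per library were not given in the sources used here. Counting intervals were therefore not computed. FPKM are shares of a library, so abundant genes that rise lower the values of others. The FPKM column sums ran from 486917 to 586657, and 11620 to 12076 genes reached 1 FPKM.

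Groups were taken from the labels. The dox and vehicle libraries were fitted on log2(FPKM + 1) with lmFit and trended eBayes of limma 3.58.1 (R 4.3.3). Genes whose mean over these 4 libraries was 1 FPKM or more entered, tests were two-sided, and p-values were adjusted by Benjamini-Hochberg over all genes tested, with a threshold of 0.05. The method was tested on simulated data. Differences on this scale understate the change of low genes. siRNA libraries were set against siControl as differences of log2(FPKM + 1), with no test. Gene positions, transcript GC and length and shared words of 50 bases came from GENCODE M21 on GRCm38, promoter windows from RefSeq on GRCm38.p6. The labels give clone numbers 1 and 2 in both knock-in groups, and clone differences in dox and vehicle correlated across 11927 genes, which are not independent replicates (Pearson r = 0.441).

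The 36 genes and 8 further lists (125 entries, 124 in the table) were chosen with earlier results of these data known. Members with a mean of 1 FPKM or more are given in full, others by range unless 1 library reached 1 FPKM. From other lists up to 4 genes are named, those past the threshold first, then by size of the dox difference, with Dnmt3a, Dnmt3b, Dnmt3l and Rpl10 added. Genes named beyond this were chosen after their values were seen. Pou5f1 and Lin28a stand in 2 lists. Alternatives were other pseudocounts, filters and scalings, a clone block, a correction for GC content and length, and leaving out each library.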

Additional observations from a re-analysis of the deposited data

How the results depend on the processing

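No alternative tried made a call of a single germline gene change direction, except that Sycp3, not called otherwise, was called higher in dox at 0.38 (log2) with the replicate block and the GC and length correction together, a combination chosen after seeing the data. That fit called 1 member higher and 5 lower, and 2986 of all genes lower. With the replicate block alone 7 members and 3190 of all genes fell, and with the GC and length correction alone 2 members fell. With 1 library left out, 2 to 6 members fell, 538 to 1993 of all genes fell and 1100 to 2064 rose. The lone sample left in a group is then assumed to vary like the other group. Leaving out vehicle clone 1 gave 538 falling and 1100 rising genes, leaving out dox clone 2 gave 940 and 1316, and leaving out vehicle clone 2 gave 1057 and 1642. No filter left 947 genes falling, and a mean of 5 FPKM or more 1289 rising. Genes at 2-fold from siControl with a pseudocount of 0.1 numbered 22 higher and 48 lower for siDnmt3a + siDnmt3b, 13 and 32 for siDnmt3a, and 10 and 21 for siDnmt3b. With a mean of 5 FPKM or more they numbered 5 and 10, 3 and 4, and 1 and 4. With the GC and length correction 5 were higher for siDnmt3a + siDnmt3b and 5 for siDnmt3a. With no filter 16 were lower for siDnmt3a and 12 for siDnmt3b. Between the lines, 7 of 18 members lay above with vehicle libraries alone, where 38.9% of all genes did. With no filter 4 of 36 members lay above and 8 below. The share of all genes with no filter is not given here, so those 2 counts are not read as a result about the members. No cause of these shifts was tested. With 2 clones a group and 1 library per siRNA, small differences of low genes could not be resolved.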

Other observations

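Other germ cell genes behaved in several ways. Of 30 further meiotic and piRNA genes 29 were in the table and 12 were tested for dox, of which 2 fell, none rose and the median log2 difference was -0.19. Tdrd7, a tudor domain protein of germ granules, had 8.47 and 9.15 FPKM in dox clones 1 and 2, against 13.4 and 16.2 FPKM in vehicle clones 1 and 2 (log2 difference -0.68, limma adjusted p = 0.00760), and Trip13, which removes HORMA domain proteins from the chromosome axis, also fell (log2 difference -0.39, limma adjusted p = 0.0344). Stra8, the retinoic acid target that starts the meiotic programme, was named after its values were seen. It had 0.237 and 0.342 FPKM in dox clones and 0.237 and 0 FPKM in vehicle clones, against 10.2 FPKM in siDnmt3a + siDnmt3b, 11.1 in siDnmt3a, 9.83 in siDnmt3b and 8.51 in siControl. It stood apart between the lines and not between treatments of either line.

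Primordial germ cell factors moved both ways after dox: of 9 tested, 4 rose, Prdm1, Kit, Prdm14 and Tfap2c, and 3 fell, Dnd1, Dppa3 and Ifitm3. Prdm1, which represses somatic genes in germ cell precursors, had 2.73 and 2.30 FPKM in dox clones against 1.09 and 0.896 FPKM in vehicle clones (log2 difference 0.82, limma adjusted p = 0.00599). Of 12 genes of haploid spermatids all stayed under 1 FPKM in all 8 libraries, as did 9 of 10 oocyte genes. The exception was Zp3, of the egg coat, with 3.08 and 1.99 FPKM in dox clones against 6.84 and 4.96 FPKM in vehicle clones (log2 difference -0.97, limma adjusted p = 0.0137).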
